A study of Gallus gallus with 88 samples.

Results

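The cartilage matrix genes COL9A1, ACAN, HAPLN1, MATN1, CHAD, LECT1, SOX9 and GDF5 were followed across breast muscle (Musculus pectoralis major) of broiler chicken embryos and of broilers at slaughter age. Of 9 genes listed by symbol, 8 had a probe set whose annotation gave that symbol and no other, out of 11528 distinct symbols on 20706 tested probe sets. Each of the 8 had 1 probe set. COL2A1, the ninth, had none and is not analysed here. The genes were selected by name, and no threshold on their values was used.

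The 88 arrays form 11 groups of 8, with 1 animal per array. Eggs were incubated at 37.8 °C apart from a treatment interval, in which treated eggs were warmed to 38.8 °C or cooled to 36.8 °C and the control stayed at 37.8 °C. The interval ran from embryonic day 7 to 10, with sampling on day 10, or from day 10 to 13, with sampling on day 13, at each of the 3 temperatures. At post-hatch day 35 there were 4 treated groups, 1 for each combination of temperature and interval, and a control group of 8 in which 2 arrays carried the label of days 7 to 10 and 6 that of days 10 to 13. After hatch all birds were kept in a barn on a standard diet. The labels give neither sex nor a method by which the muscle was freed from neighbouring tissue. The arrays are named below by the number in their labels.

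Hyaline cartilage is a matrix of collagen II fibrils and aggrecan, and its cells are driven by the transcription factor SOX9. Collagen IX sits on the surface of the fibrils, aggrecan binds hyaluronan, and link protein holds that bond. As a class, cartilage genes are not part of the muscle fibre programme, though CHAD and LECT1 differed from the other listed genes, as given below. In the embryo the breast muscle lies against the sternum and coracoid, which are laid down as cartilage.

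The values are log2 signals as deposited. The array median lay between 7.56 and 8.13 at day 10, between 7.68 and 7.97 at day 13 and between 6.32 and 6.76 at day 35. The lowest value of any of the 8 genes was 1.85, and 0 of their values lay at the floor of 0 that other probe sets reach. The deposited values carry no detection call, so it is not known which low values exceed background. Skeletal muscle markers were present throughout. The mean over 8 of them was 10.12 to 10.98 on the day 10 arrays and 11.33 to 11.68 on the day 13 arrays. At day 35 it was 11.05 to 11.70.

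Before the results, 5 arrays need naming, which were picked by eye for a COL9A1 value far from most of their group. They are arrays 12 (day 10, 38.8 °C) and 57 (day 10, 36.8 °C), both low, and arrays 27, 28 and 29 (day 13, 38.8 °C), all high. No rule was fixed for the choice, which was made after seeing the data. Array 16 (day 10, 38.8 °C), at 7.39 and so close to the 7.01 of array 57, was kept. Results that rest on the 5 arrays are given with and without them.

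COL9A1 encodes a chain of collagen IX (probe set 15491424). At day 10 the control arrays ran from 9.002 over a median of 10.20 to 10.88. The 38.8 °C arrays ran from 3.78 over 9.89 to 10.59, and the 36.8 °C arrays from 7.01 over 10.14 to 10.81. At day 13 they ran from 4.09 over 5.004 to 6.56 in the control, from 4.68 over 5.30 to 10.24 at 38.8 °C, and from 3.18 over 4.32 to 4.61 at 36.8 °C. Every control array of day 10 thus lay above every control array of day 13, and the same held at 36.8 °C, whereas at 38.8 °C the ages overlapped through array 12 on one side and arrays 27 to 29 on the other. COL9A1 fell by 4.88 ± 0.72 log2 units between the ages in the control (8 arrays per age, limma adjusted p = 7.1e-07). It was thus 29.5-fold lower at day 13. The value after ± is the SE, which for the age changes rests on a spread pooled over all embryo groups. It is therefore not the spread of the control arrays alone. Without the 5 arrays, none of them a control, the same control difference of COL9A1 had an SE of 0.33. At 36.8 °C COL9A1 fell by 5.64 ± 0.72 (limma adjusted p = 3.2e-08). At 38.8 °C COL9A1 fell by 2.23 ± 0.72 (limma adjusted p = 0.0197).

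ACAN encodes aggrecan, the large proteoglycan core protein of cartilage (probe set 15413257). Its control arrays lay between 8.96 and 10.71 at day 10, with a median of 9.98, and between 5.74 and 7.33 at day 13, with a median of 6.36. The 36.8 °C arrays lay between 7.92 and 10.91 (median 10.05) and then between 5.60 and 6.76 (median 6.23). The ages did not overlap at these temperatures. At 38.8 °C they ran from 4.62 to 10.49 (median 9.54) and from 5.78 to 9.36 (median 6.41). There 5 of 8 day 10 arrays lay above all day 13 arrays. ACAN changed by -3.48 ± 0.52 in the control, -3.59 ± 0.52 at 36.8 °C and -1.79 ± 0.52 at 38.8 °C (limma adjusted p = 7.2e-07, 3.7e-07 and 0.00821).

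HAPLN1 encodes the link protein that ties aggrecan to hyaluronan (probe set 15560459). The gene lies on the sex chromosome Z, and the labels give no sex, so the part of sex in its values was not tested. The control arrays ran from 9.82 to 11.14 at day 10 (median 10.67) and from 5.35 to 7.55 at day 13 (median 6.15). At 38.8 °C the range was 5.70 to 11.39 (median 10.73) and then 4.64 to 10.12 (median 6.55). At 36.8 °C it was 7.52 to 11.41 (median 10.54) and then 4.79 to 7.73 (median 5.74). The control ages did not overlap, while at 36.8 °C a single low day 10 array (57) fell just below a single high day 13 array (77). HAPLN1 changed by -4.28 ± 0.64 in the control, which is 19.5-fold lower, by -4.50 ± 0.64 at 36.8 °C and by -2.75 ± 0.64 at 38.8 °C (limma adjusted p = 7.5e-07, 2.7e-07 and 0.00098).

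MATN1 encodes matrilin-1, an adaptor that links the fibrillar and proteoglycan parts of cartilage (probe set 15473627). Its control arrays ran from 7.64 to 9.80 at day 10 and from 5.38 to 6.62 at day 13, without overlap. MATN1 changed by -2.81 ± 0.46 in the control, by -2.72 ± 0.46 at 36.8 °C and by -1.58 ± 0.46 at 38.8 °C (limma adjusted p = 3.8e-06, 7.1e-06 and 0.00813). CHAD encodes chondroadherin, a leucine-rich protein that binds collagen and cells (probe set 15441778). It ran from 6.97 to 8.68 on the day 10 control arrays and from 6.20 to 6.56 on the day 13 ones, so that its day 13 control spread was small (SD 0.10, n = 8). CHAD changed by -1.61 ± 0.34 in the control and by -1.27 ± 0.34 at 36.8 °C (limma adjusted p = 0.000221 and 0.0036). At 38.8 °C the difference of CHAD was -0.65 ± 0.34 (limma adjusted p = 0.175), with day 10 arrays from 4.95 to 9.25 and day 13 arrays from 6.17 to 8.01.

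SOX9, the transcription factor named above, had probe set 15441380. Its control arrays ran from 7.08 to 8.96 at day 10 and from 5.41 to 6.32 at day 13. SOX9 changed by -2.29 ± 0.29 in the control, by -2.23 ± 0.29 at 36.8 °C and by -1.59 ± 0.29 at 38.8 °C (limma adjusted p = 2.6e-08, 4.3e-08 and 3.8e-05). GDF5, a secreted BMP-family ligand of early cartilage condensations and joint interzones, had probe set 15464465. Its control arrays ran from 7.71 to 9.42 at day 10 and from 4.68 to 6.53 at day 13. GDF5 changed by -2.87 ± 0.38 in the control, by -3.39 ± 0.38 at 36.8 °C and by -1.57 ± 0.38 at 38.8 °C (limma adjusted p = 9.1e-08, 1.7e-09 and 0.00176). For both genes the control ages and the 36.8 °C ages did not overlap.

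LECT1, also called CNMD, encodes chondromodulin, a glycoprotein of avascular cartilage (probe set 15394815). Its level stayed high at both embryonic ages. Its group means ± SD were 11.55 ± 0.34 in the control, 11.41 ± 0.48 at 38.8 °C and 11.52 ± 0.22 at 36.8 °C on day 10, against 11.31 ± 0.11, 11.49 ± 0.12 and 11.35 ± 0.06 on day 13 (n = 8 each). The lowest of the 48 embryo values was 10.59 and the highest 12.25. The control difference was -0.24 ± 0.13 (limma adjusted p = 0.19) and did not pass the threshold.

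**Figure D1:**
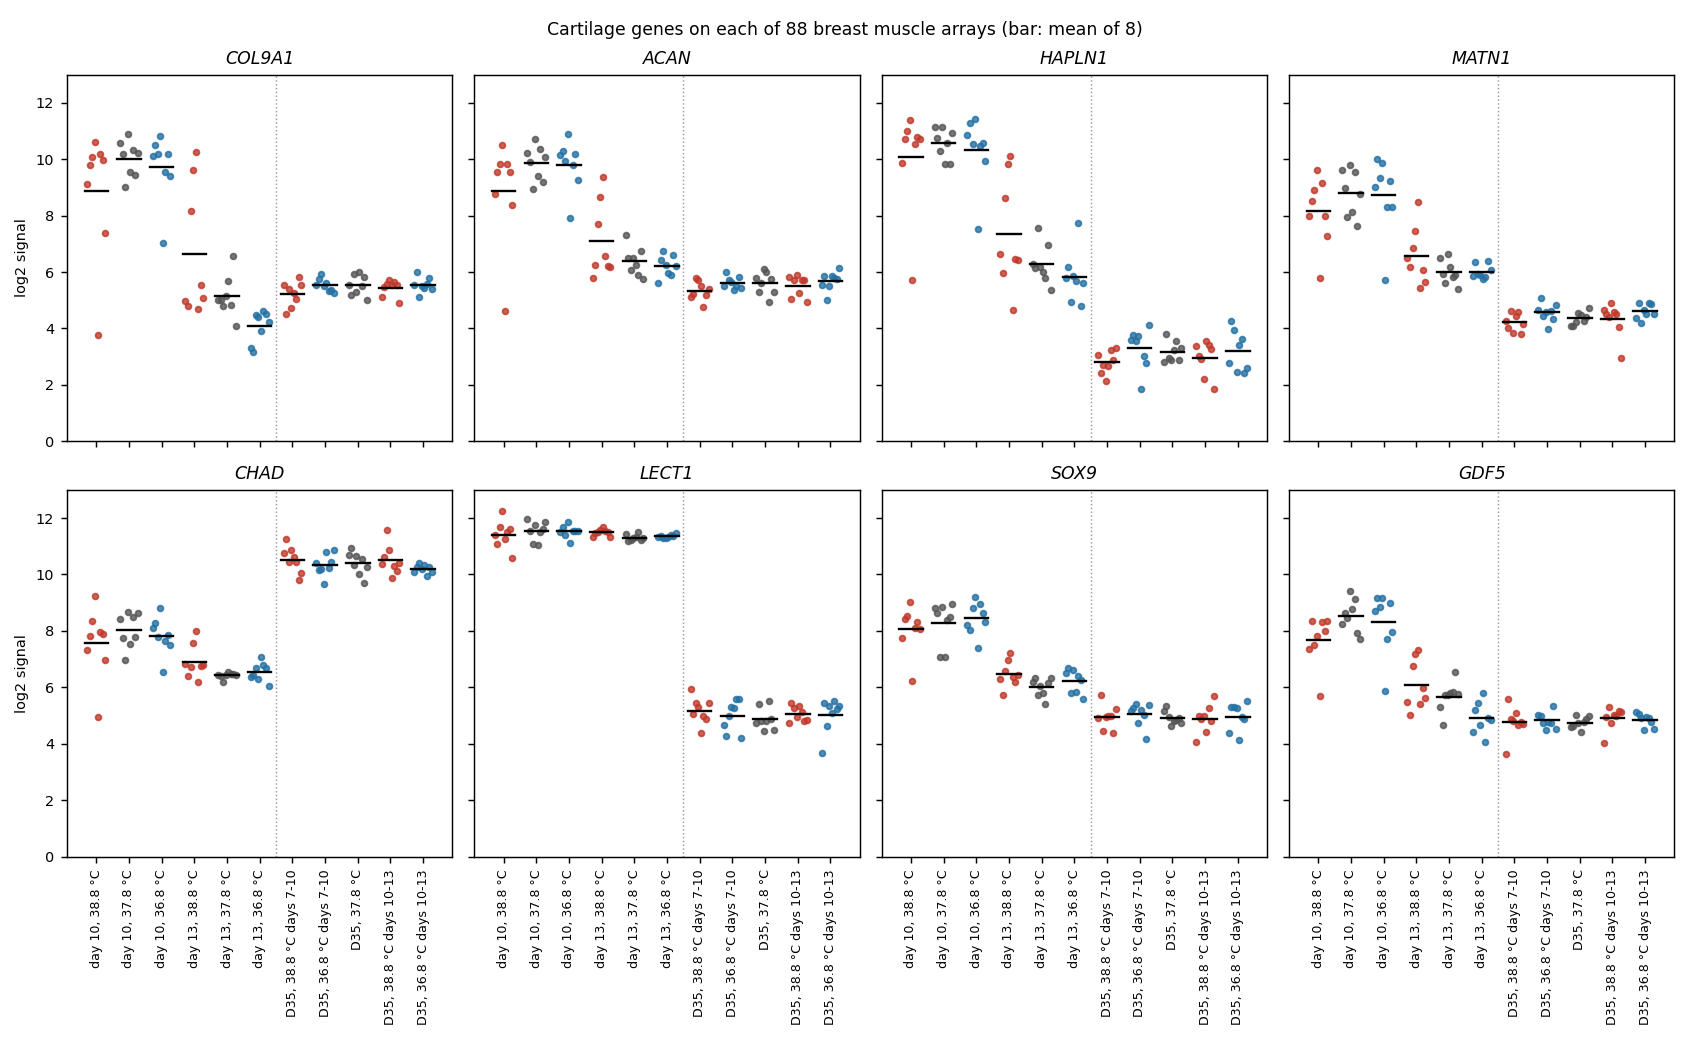
Log2 signal of the 8 genes on each of the 88 arrays, by group (points, 1 per array, in red for 38.8 °C, grey for 37.8 °C and blue for 36.8 °C; black bars, mean of 8). COL9A1 control arrays lie between 9.002 and 10.88 at day 10 and between 4.09 and 6.56 at day 13, LECT1 stays between 10.59 and 12.25 in all embryo groups, and to the right of the dotted line (day 35) CHAD lies between 9.68 and 11.56.

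Counted together, 7 of the 8 genes fell in the control, 7 at 36.8 °C and 6 at 38.8 °C (adjusted p under 0.05 over all tested probe sets). Over all tested probe sets the share that fell was 17.2% in the control, 12.1% at 36.8 °C and 14.4% at 38.8 °C. The median difference of the 8 genes was -2.84, -3.05 and -1.59, against -0.02, 0.02 and -0.04 over all probe sets. In the control the ages did not overlap for 7 of the 8 genes, compared with 4.49% of all probe sets in which every day 13 array lay below every day 10 array. At 36.8 °C this held for 4 genes (2.98% of all probe sets) and at 38.8 °C for 0 (3.75%). Since RNA came from whole tissue, fewer cells of a type and less RNA per cell cannot be told apart here.

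The 5 arrays were picked by their COL9A1 level, low at day 10 and high at day 13, so leaving them out must enlarge the fall at 38.8 °C of COL9A1 and of genes that vary with it. The values without them are a description and support nothing about the temperature. Without them COL9A1 changed by -4.58 ± 0.39 at 38.8 °C, HAPLN1 by -4.69 ± 0.38, ACAN by -3.29 ± 0.30 and CHAD by -1.34 ± 0.27, and 7 of the 8 genes fell there. Array 12 alone decided CHAD, which fell by 1.02 at 38.8 °C without it (limma adjusted p = 0.00456). The call of COL9A1 at 38.8 °C was lost, with an adjusted p between 0.0507 and 0.0528, when any 1 of the day 13 arrays 25, 26 or 30 was left out.

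Whether the fall differed by temperature was tested as the age change at a treated temperature minus that in the control. None of the 8 genes passed, and 0 of all probe sets did at either temperature. At an unadjusted p under 0.05, 3 of the 8 genes differed for 38.8 °C, where 3.88% of all probe sets did, and 0 for 36.8 °C, where 2.95% did. The 3 were COL9A1 with a difference of 2.65 ± 1.02, ACAN with 1.69 ± 0.73 and GDF5 with 1.29 ± 0.54, each with a limma adjusted p of 1. Without the 5 arrays, which were picked by this gene, the difference of COL9A1 was 0.30 for 38.8 °C. For 36.8 °C, 2 of the 8 genes then had a limma unadjusted p under 0.05 and 0 passed. They were COL9A1 at -1.14 ± 0.48 and GDF5 at -0.87 ± 0.37 (limma unadjusted p = 0.0228 for each). With all arrays the lowest difference of the 8 genes for 36.8 °C was -0.75. Among the 5 is array 57, which had the lowest COL9A1 value of the 36.8 °C arrays at the earlier age. Leaving it out must enlarge the fall there of COL9A1 and of genes that vary with it. The values without the 5 arrays are thus a description and support nothing about the temperature. The share of all probe sets was not computed for this setting.

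**Figure D2:**
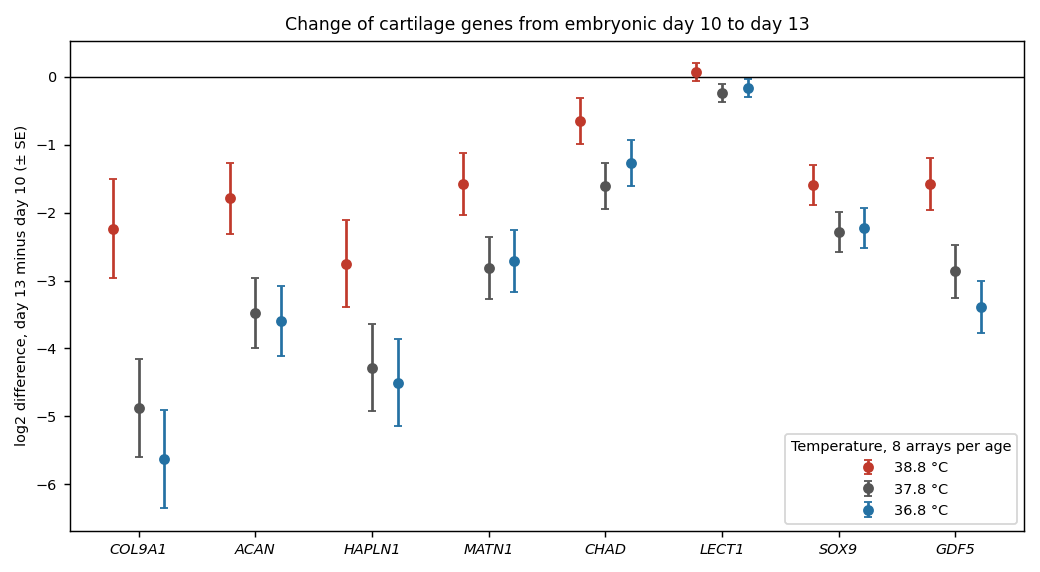
Log2 difference between embryonic day 13 and day 10 for each gene at the 3 temperatures (points, 8 arrays per age, with bars of ± SE). The SE rests on a spread pooled over all embryo groups. The control points run from -4.88 for COL9A1 to -0.24 for LECT1, and the 38.8 °C points of COL9A1 and HAPLN1 stand closer to 0, at -2.23 and -2.75.

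Within day 10, none of the 8 genes passed the threshold between temperatures. Of all probe sets, 0% passed the threshold for 38.8 °C against control, 0% for 36.8 °C against control and 0.0338% for 38.8 °C against 36.8 °C. At 38.8 °C all 8 genes had a lower mean than in the control, with COL9A1 at -1.16 ± 0.73, ACAN at -0.98 ± 0.59 and GDF5 at -0.86 ± 0.42 (limma adjusted p = 0.628 for each). At an unadjusted p under 0.05, 0 of the 8 genes differed in this comparison, where 6.29% of all probe sets did. Without the 5 arrays 6 of the 8 means were lower and COL9A1 stood at -0.43, a value that still includes the low array 16. GDF5 alone then had an unadjusted p under 0.05, at -0.58 ± 0.26 (limma unadjusted p = 0.0388, adjusted p = 0.576). Against 36.8 °C GDF5 stood at -0.69 ± 0.27 (limma unadjusted p = 0.0187, adjusted p = 0.234). The share of all probe sets was not computed without the 5 arrays. At 36.8 °C the group means of day 10 of the 8 genes differed from the control by -0.30 to 0.16.

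Within day 13, COL9A1 and GDF5 were higher at 38.8 °C than at 36.8 °C, by 2.55 ± 0.69 and 1.18 ± 0.32 (limma adjusted p = 0.0306 and 0.0319). These were 2 of the 8 genes, where 3.54% of all probe sets were higher. The GDF5 arrays ran from 5.01 over 5.80 to 7.33 at 38.8 °C, from 4.68 over 5.73 to 6.53 in the control and from 4.07 over 4.87 to 5.79 at 36.8 °C. For COL9A1 the lowest array at 38.8 °C read 4.68 and the highest at 36.8 °C read 4.61, and arrays 27, 28 and 29 lay farthest above. The share of all probe sets without overlap between these groups was not computed. Without the 5 arrays the difference was 0.93 for COL9A1 (limma adjusted p = 0.134) and 0.59 for GDF5 (limma adjusted p = 0.271). Arrays 27, 28 and 29 were picked for high COL9A1. Leaving them out must lower the 38.8 °C mean of COL9A1 and of genes that vary with it, so these smaller differences are a description only. With the listing block as a term the differences were 2.84 and 1.81, and neither passed (limma adjusted p = 0.247 and 0.124). A listing block is the set of arrays that stand together in the sample listing, and each of the 2 blocks of an age holds a single treated temperature and 4 of the 8 controls.

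Against the day 13 control, 0 of the 8 genes passed at 38.8 °C, and 0.00483% of all probe sets were higher. All 8 means were higher at 38.8 °C, and 4 genes had an unadjusted p under 0.05, where 12.3% of all probe sets did. COL9A1 differed by 1.49 ± 0.69, HAPLN1 by 1.06 ± 0.62, ACAN by 0.71 ± 0.41, CHAD by 0.48 ± 0.19, SOX9 by 0.47 ± 0.20 and LECT1 by 0.18 ± 0.05, with limma adjusted p between 0.296 and 0.473. Without the 5 arrays COL9A1, HAPLN1 and ACAN turned to the other sign, at -0.13, -0.25 and -0.18, and 3 of the 8 means stayed higher. The arrays left out at 38.8 °C were picked for high COL9A1, so a fall of these differences was fixed by the choice. The values without them support nothing about the temperature. At 36.8 °C 0 genes passed, with 0.00483% of all probe sets called in either direction. COL9A1 stood at -1.06 ± 0.69 and GDF5 at -0.75 ± 0.32 (limma adjusted p = 0.503 and 0.293). None of the 5 arrays is in these groups, but the SE rests on a spread pooled over all groups of the age. Without them the differences were the same, with an SE of 0.28 and 0.24 (limma unadjusted p = 0.00124 and 0.00531, adjusted p = 0.143 and 0.203). Arrays far from their group were left out, so a smaller SE was fixed by the choice. The share of all probe sets was not computed for this setting. In order of group mean, COL9A1 was highest in the day 10 control, then at 36.8 °C and 38.8 °C of day 10, then at 38.8 °C, control and 36.8 °C of day 13. Of the neighbours in this order that were tested, those within an age missed the threshold, and the step between the ages at 38.8 °C passed it.

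The 5 named arrays stood apart for most of the genes at once. Array 12 read 3.78 for COL9A1, 4.62 for ACAN, 5.70 for HAPLN1, 5.80 for MATN1, 4.95 for CHAD, 6.23 for SOX9 and 5.69 for GDF5, each below the other 7 arrays of its group. Its LECT1 value of 11.24 lay inside the range of the others, 10.59 to 12.25. Array 57 was likewise lowest of its group for all 8 genes, with COL9A1 at 7.01 and MATN1 at 5.72. Its LECT1 value of 11.11, however, was only a little below the next, 11.41. Array 57 also had 148 probe sets at 0, the most of the day 10 arrays, and an array median of 7.65. On array 12 these were 75 and 7.85. The part of array quality in the low values was not tested.

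At day 13 the high arrays were ordered alike across genes. COL9A1 read 8.15, 9.60 and 10.24 on arrays 27, 28 and 29, against 4.68 to 5.53 on the other 5 arrays at 38.8 °C. ACAN read 7.69, 8.66 and 9.36 against 5.78 to 6.58, and HAPLN1 8.64, 9.82 and 10.12 against 4.64 to 6.63. MATN1, SOX9 and GDF5 also lay above all the other 5 arrays, CHAD did on arrays 28 and 29, and LECT1 overlapped with them.

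**Figure D3:**
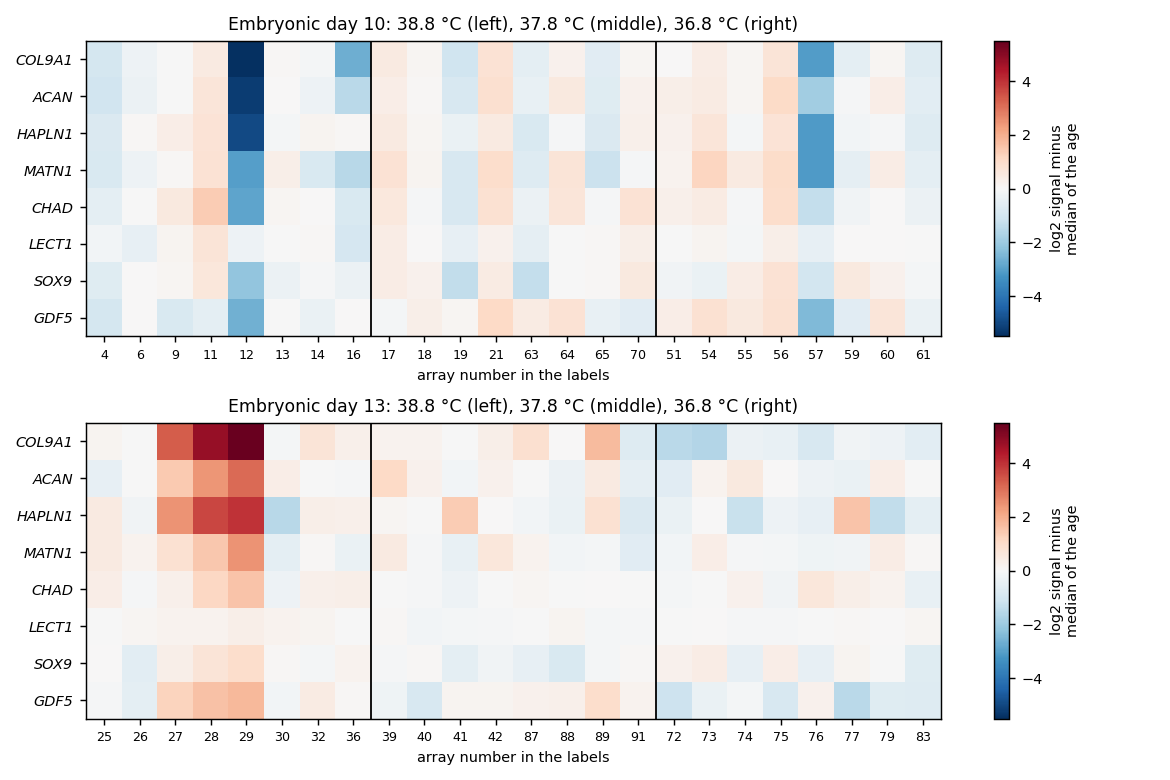
Log2 signal of each gene on each embryo array minus the median of that gene over the 24 arrays of the age (colour; columns are arrays by the number in their labels, rows are genes). Arrays 12 and 57 are blue in most rows at day 10 and arrays 27, 28 and 29 are red in most rows at day 13, while the LECT1 row is pale throughout.

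Other lists of genes were read on the same arrays. The mean over 10 further cartilage matrix genes was lowest of the 24 day 10 arrays on array 12 (7.00) and next lowest on array 57 (7.53), where the other 22 arrays ran from 7.85 to 9.32. At day 13 it was 7.93, 8.43 and 9.10 on arrays 27, 28 and 29, the highest of the 24, where the others ran from 6.66 to 7.36. The mean over 11 tendon and connective tissue genes was among the lowest on arrays 12 and 57 (11.04 and 10.90, the others 11.23 to 11.95) and was highest on arrays 27, 28 and 29 (11.82, 11.80 and 12.003, the others 10.996 to 11.63). The mean over 8 genes of sulfate and glycosaminoglycan synthesis was 8.92 and 8.85 on arrays 12 and 57, below the other day 10 arrays, and ranked 19, 23 and 24 of 24 on arrays 27, 28 and 29.

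The remaining cartilage lists moved with the 8 genes on some of the 5 arrays only. The mean over 5 chondrocyte transcription factors was lowest on arrays 12 and 57 (7.82 and 8.002), and at day 13 it ranked 17, 21 and 24 of 24 on arrays 27, 28 and 29. The mean over 6 hypertrophy and bone genes was lowest on array 12 (6.89) but ranked 16 of 24 on array 57, and it ranked 12, 14 and 24 on arrays 27, 28 and 29. The mean over 8 joint and BMP signalling genes ranked 1 and 3 of 24 on arrays 12 and 57, and 22, 6 and 20 on arrays 27, 28 and 29.

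The skeletal muscle mean was 10.96 on array 12, rank 23 of 24 from the lowest, and 10.62 on array 57, rank 16. On arrays 27, 28 and 29 it was 11.42, 11.55 and 11.42, ranks 3, 18 and 4 of 24. All 5 values lay inside the range of the other arrays of the age, with arrays 12, 27 and 29 near an end of it. The means over 4 epidermis, 5 blood and 3 nerve and Schwann cell genes on these 5 arrays also lay inside the range of the other arrays of the age. Array 16, at day 10 and 38.8 °C, had a COL9A1 value of 7.39 and held a nerve and Schwann cell mean of 8.27 and an epidermis mean of 9.63, both near the top of day 10. The part of other tissue in any of these values was not tested.

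The correlation of the 8 genes between arrays of an age was computed on values from which the group mean had been subtracted. There were 28 pairs at each of 3 ages, 84 relations in all, with two-sided p-values from 100000 permutations and Benjamini-Hochberg adjustment over the 84. The share of passing pairs among all genes was not computed, so the counts of pairs have no such share beside them. With the mean of the 8 genes, the median r over all 11528 genes was 0.14 at day 10, 0.04 at day 13 and -0.03 at day 35. At day 10 all 28 pairs were positive over 24 arrays, with a median r of 0.79. By r 26 passed the adjusted threshold of 0.05, and by Spearman's rho 25 did. COL9A1 and ACAN had r = 0.98 and Spearman's rho = 0.96 (permutation p = 1e-05 for r, the smallest they can give, adjusted p = 6e-05). Without the 2 arrays farthest from the median of COL9A1 their r was 0.94. COL9A1 and CHAD had r = 0.93 and rho = 0.86, and COL9A1 and MATN1 r = 0.88 and rho = 0.86, each with r above 0.84 without the 2 farthest arrays.

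SOX9 and GDF5 followed less closely. COL9A1 and SOX9 had r = 0.78 and rho = 0.60 (permutation adjusted p = 0.00024 for r over all 24 arrays). Without the 2 farthest arrays their r was 0.56. COL9A1 and GDF5 had r = 0.74 and rho = 0.55 (permutation adjusted p = 0.00154 for r and 0.0141 for rho). Without the 2 farthest arrays r was 0.32. Those arrays are chosen by their COL9A1 value, so leaving them out removes spread, and a lower r was in part fixed by the choice. LECT1 passed the threshold in 5 of its 7 pairs at day 10. With COL9A1 its r was 0.56 and its rho 0.68 (permutation adjusted p = 0.0134 for r), and without the 2 farthest arrays r was 0.75. The 2 pairs of LECT1 that did not pass by r were those with HAPLN1 and GDF5. HAPLN1 and LECT1 had r = 0.41 and rho = 0.60 (permutation adjusted p = 0.0905 for r and 0.00753 for rho), so this pair passed by rho. LECT1 and GDF5 had r = 0.11 and rho = 0.07 (permutation adjusted p = 0.667 for r).

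Without arrays 12 and 57, 20 of the 28 pairs at day 10 passed the threshold and the median r was 0.66. GDF5 then passed in 0 of its 7 pairs, and LECT1 in 6 of 7, all but GDF5. Both arrays were picked by COL9A1, so a lower r was in part fixed by the choice. Within the listing blocks of 12 arrays each, 20 and 18 pairs passed at day 10, with a median r of 0.86 and 0.84.

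At day 13 the 24 arrays formed separate clusters, 3 high arrays and 21 others, so the relation was read within the 21. There 0 of the 28 pairs passed, r ran from -0.36 to 0.38 with a median of 0.07, and COL9A1 and ACAN had r = 0.37. The 3 arrays were picked by COL9A1, so leaving them out removes spread of the genes that vary with it. A lower r was thus in part fixed by the choice. Over all 24 arrays 22 pairs passed, and 11 by Spearman's rho, so those counts rested on arrays 27, 28 and 29. In the listing block that holds these arrays 22 pairs passed at day 13, and in the other block, with 12 arrays, 0 did. The genes of an array share its RNA, hybridization and normalization.

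**Figure D4:**
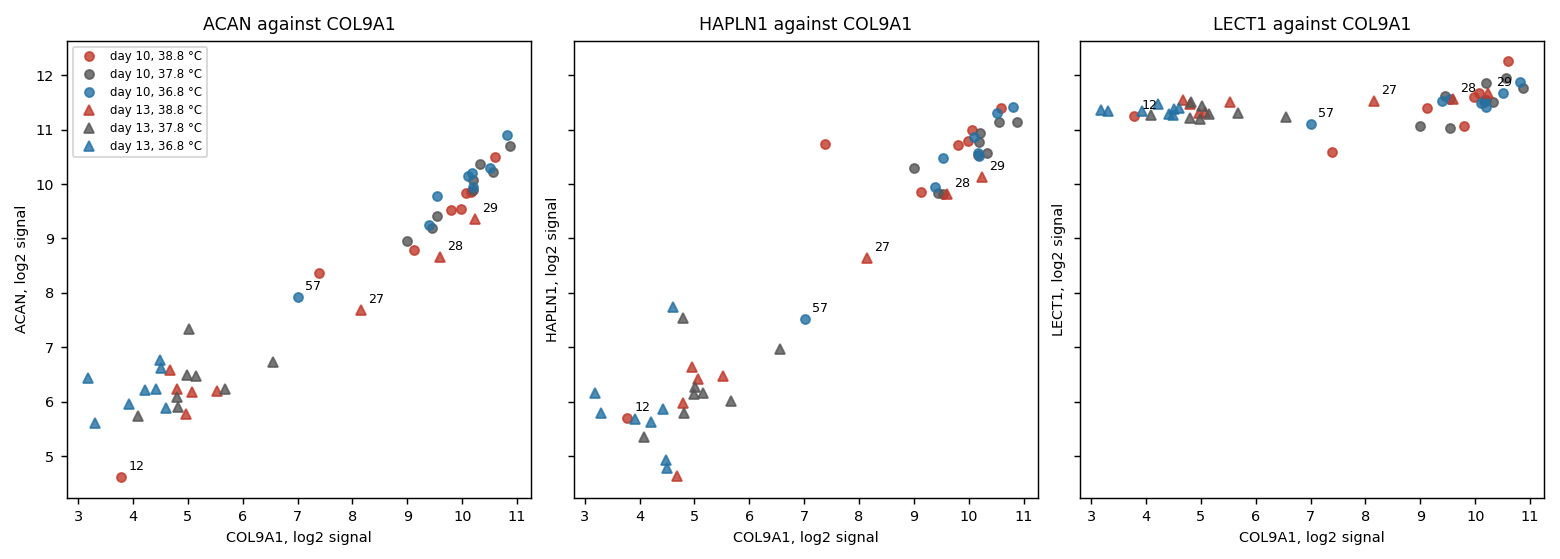
ACAN, HAPLN1 and LECT1 against COL9A1 on the 48 embryo arrays (log2 signal on both axes; circles, day 10; triangles, day 13; colours by temperature; numbers mark the 5 arrays named in the text). ACAN and HAPLN1 rise along COL9A1 and the numbered arrays lie along that rise. Array 12 lies among the day 13 arrays for HAPLN1 and below them for ACAN (4.62, where the lowest day 13 array reads 5.60). Arrays 28 and 29 lie near the day 10 arrays, while LECT1 stays between 10.59 and 12.25.

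The same relation was read across all probe sets as a slope on COL9A1, with groups as terms in limma. At day 10, 6 of the 7 other genes had a positive slope past the threshold, where 0.444% of all probe sets did. ACAN had the smallest p of all 20705 probe sets, with a slope of 0.79 ± 0.03 log2 units per log2 unit of COL9A1 (limma adjusted p = 1.2e-12). CHAD ranked 5, HAPLN1 7 and MATN1 12. SOX9 ranked 34 and GDF5 58. LECT1 was the exception, at 0.13 ± 0.04 (limma adjusted p = 0.346). Without arrays 12 and 57, 4 of the 7 passed, where 0.0821% of all probe sets did. Those were ACAN, MATN1, CHAD and LECT1, the last with a slope of 0.38 ± 0.07 (limma adjusted p = 0.0226), while HAPLN1, SOX9 and GDF5 no longer passed. Arrays 12 and 57 were picked by COL9A1 itself, so leaving them out removes its spread. The loss of calls was thus in part fixed by the choice.

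At day 13, ACAN, HAPLN1, MATN1, CHAD and GDF5 had slopes past the threshold, 5 of 7, where 0.116% of all probe sets did. Without arrays 27, 28 and 29, which were picked by COL9A1 itself, none of the 7 passed, and 0% of all probe sets did. Leaving out array 29 alone left 1 of the 7, and leaving out 1 of arrays 26, 28, 30, 32, 41, 42, 72, 74, 87 or 88 left 3.

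**Figure D5:**
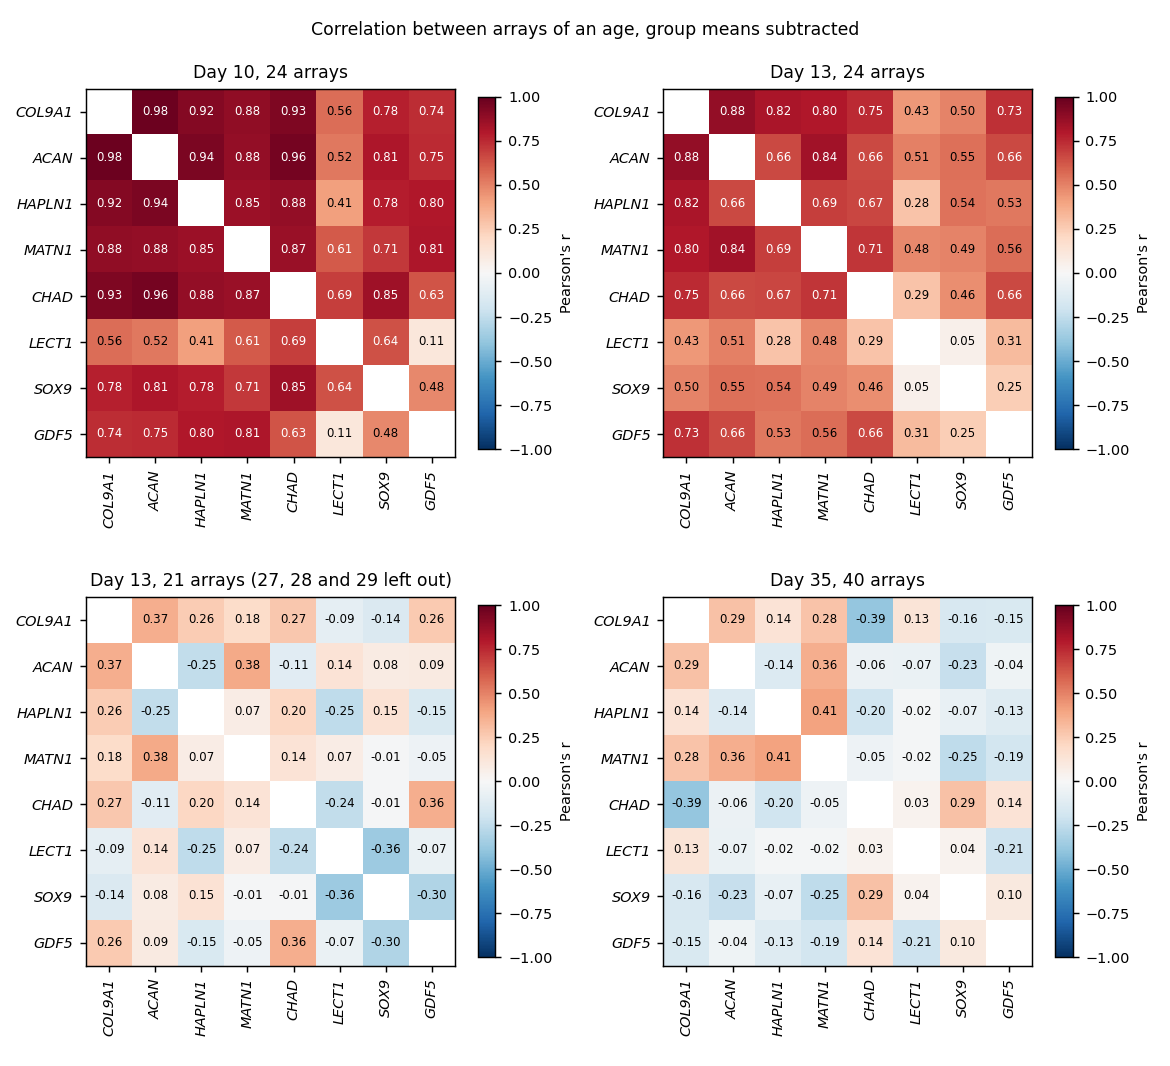
Pearson's r between each pair of genes over the arrays of an age after subtraction of group means (colour and printed value; day 10 with 24 arrays, day 13 with 24 and with 21 arrays, day 35 with 40 arrays). The median r is 0.79 at day 10, 0.56 at day 13, 0.07 at day 13 without arrays 27, 28 and 29, and -0.04 at day 35.

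At day 35, of the 28 pairs over 40 arrays 3 passed and 11 were positive, and r ran from -0.39 to 0.41. COL9A1 and CHAD had r = -0.39 (rho = -0.36, permutation adjusted p = 0.0242 for r), HAPLN1 and MATN1 r = 0.41 (rho = 0.31, permutation adjusted p = 0.018), and ACAN and MATN1 r = 0.36 (rho = 0.25, permutation adjusted p = 0.035). By Spearman's rho, and without the 2 farthest arrays, 0 pairs passed. On the slope with COL9A1, 0 of the 7 genes passed, where 0.00966% of all probe sets had a positive slope past the threshold.

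None of the 8 genes passed the threshold between any of the 4 treated groups and the control at day 35, and 0% of all probe sets did. At an unadjusted p under 0.05, 0 of the 8 genes differed in each of the 4 comparisons, where 6.4% and 3.14% of all probe sets did for 38.8 °C (days 7 to 10 and 10 to 13) and 3.09% and 6.37% for 36.8 °C. COL9A1 at 38.8 °C on days 7 to 10 stood at -0.31 ± 0.16 (limma adjusted p = 0.808).

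The levels at day 35 are set beside those of the embryo without a test, because the array medians differ and because whether the sets were normalized together is not given in the sources used here. CHAD ran from 9.68 over a median of 10.36 to 11.56 over the 40 arrays at day 35, above its highest embryo value of 9.25. LECT1 ran from 3.67 over 5.08 to 5.92, below its lowest embryo value of 10.59. HAPLN1 ran from 1.85 over 3.05 to 4.25, below its lowest embryo value of 4.64. MATN1 ran from 2.94 over 4.48 to 5.09, below its lowest embryo value of 5.38. COL9A1 ran from 4.51 over 5.52 to 5.99, within the range of the day 13 control arrays. ACAN ran from 4.77 over 5.64 to 6.16, SOX9 from 4.06 over 4.97 to 5.72 and GDF5 from 3.65 over 4.84 to 5.58. These 3 ranges overlapped those of day 13. CHAD was the only one of the 8 genes to lie above its embryo values. Which cells held the CHAD signal at day 35, or the LECT1 signal in the embryo, was not tested.

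Other genes of the pathway were read in the control between day 10 and day 13. Over all probe sets 17.2% fell and 9.65% rose in this comparison, and the counts of each list are to be read against these shares. Of 10 further cartilage matrix genes, 7 fell and COMP, a matrix protein of cartilage and tendon, rose. CYTL1, a secreted protein of chondrogenic cells, changed by -5.002 ± 0.64, and COL9A3, another chain of collagen IX, by -3.94 ± 0.58, while COMP rose by 0.48 ± 0.16 (limma adjusted p = 2.9e-08, 6.0e-07 and 0.0242). Of 5 chondrocyte transcription factors 4 fell, with RUNX2 at -2.90 ± 0.45 and NKX3-2 at -2.28 ± 0.41, and SOX6, which acts with SOX9 and SOX5, rose by 0.88 ± 0.12 (limma adjusted p = 1.8e-06, 2.2e-05 and 1.8e-07). SOX6 is also expressed in fast muscle. All 8 genes of sulfate and glycosaminoglycan synthesis fell, with the chondroitin sulfate enzyme CSGALNACT1 at -1.64 ± 0.31 and PAPSS2, which makes the sulfate donor, at -0.76 ± 0.22.

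Of 8 joint and BMP signalling genes 4 fell and 1 rose. The ligands BMP2 and WNT9A changed by -1.21 ± 0.21 and -0.60 ± 0.14, and BMPR1B, a receptor that binds GDF5, rose by 0.46 ± 0.10 (limma adjusted p = 1.5e-05, 0.00109 and 0.000177). Of 6 hypertrophy and bone genes 4 fell, with SPP1 at -2.04 ± 0.76 and FGFR3 at -1.56 ± 0.33, and COL10A1, the collagen of hypertrophic cartilage, stood at 0.04 ± 0.12 (limma adjusted p = 0.857). Of 11 tendon and connective tissue genes 3 fell and 3 rose, among them THBS4 at -1.51 ± 0.28, tenomodulin (TNMD) at -1.20 ± 0.30 and POSTN at 0.58 ± 0.16.

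The markers of other tissues moved differently from one another. All 8 skeletal muscle genes rose, led by the embryonic acetylcholine receptor subunit CHRNG at 1.47 ± 0.15 (limma adjusted p = 1.7e-10). None of 4 epidermis genes passed, and KRT5, with the smallest p, stood at 0.44 ± 0.43. Of 5 blood genes 2 fell, the embryonic globin HBE with -3.25 ± 0.34 and HBAD with -0.31 ± 0.10, and all 3 nerve and Schwann cell genes fell, led by FABP7 at -0.73 ± 0.12 and NEFM at -0.49 ± 0.19. With so few genes in these lists, and with 3 of 11 falling among the tendon and connective tissue genes, counts near the shares of all probe sets are not results about the lists.

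The genes outside the 8 that were most like them were picked by the lower of their r at day 10 and at day 13 with the mean of the 8 genes, over 24 arrays at each age and among 11528 genes. The first 8 were SUSD5 (0.96 and 0.90), EPYC (0.88 and 0.90), FGFBP2 (0.93 and 0.86), THBS1 (0.92 and 0.83), CYTL1 (0.95 and 0.80), TNC (0.95 and 0.80), MATN4 (0.94 and 0.78) and MATN3. EPYC is a small proteoglycan, and MATN3 and MATN4 are matrilins. An r above 0.5 was found for 5.10% of genes at day 10 and 2.17% at day 13. Without the 5 arrays the r of these 8 genes ran from 0.76 (MATN3) to 0.93 (MATN4) at day 10. At day 13 it ran from 0.08 (SUSD5) to 0.53 (THBS1), below its value over all arrays for each of the 8. These genes were picked by a high r over all arrays. The arrays left out were picked by COL9A1, which is part of the mean. A lower r was thus in part fixed by both choices. SUSD5 changed by -3.63 ± 0.49 in the control, and TNC, tenascin C of embryonic connective tissue, by -2.99 ± 0.33 (limma adjusted p = 1.2e-07 and 1.2e-09). No p is given for the likeness itself, because the genes were picked by it.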

How the data were processed

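Per the labels' protocols, RNA from frozen muscle of single animals was labelled with biotin and measured on Affymetrix 1-colour arrays. GCOS 1.1.1 is the software listed in the submitters' processing notes. How probes were summarised and normalized, and on which genome build, is not stated in the labels or file headers. The authors deposited log2 values, read as such from their range, in a pair of tables that differed in 0 values. The 98 control probe sets were left out and 20706 were tested. Symbols were taken from GEO's platform table and brought up to date by Entrez number with RefSeq names of GRCg7b: 12300 probe sets had 1 symbol, 256 several and 8150 none. Where a listed gene had several probe sets, the one of highest mean over the embryo arrays was used.

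Groups came from the labels. Linear models were fitted with limma 3.58.1 (R 4.3.3) over all probe sets, with 48 embryo arrays for age changes, 24 arrays within an embryonic age and 40 at day 35. The p-values were adjusted by Benjamini-Hochberg over all probe sets, with a threshold of 0.05. Correlations used numpy 2.4.6. The models and the permutation were tested on simulated data. The alternatives were quantile normalization, the listing block, a filter on probe sets of mean below 5, a trended robust variance and leaving out each array.

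The genes, the other lists and the tests were chosen with earlier results of these data known. Named were all 8 genes, from each other list the gene with the largest rise and the 2 with the largest fall (or the smallest p where none passed), and the 8 genes most alike. COL10A1 was named after its values were seen, as were array 16 and the genes named from slopes. The number of arrays limits the precision.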

Additional observations from a re-analysis of the deposited data

Results flagged for a closer look

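Each gene was searched in each group of 8 arrays for 1 array far from the rest, in 88 sets of values, and 13 were found. For independent sets chance flags about 1 in 20. The 88 sets are not independent, since genes of an array vary together, and arrays 12 and 57 had already been picked by eye. The share flagged over all probe sets was not computed, so the count is not a result about the genes. A value was flagged when its gap to the nearest other array was over 0.526 of the range of the group. On array 12 (day 10, 38.8 °C) these were COL9A1 at 3.78, ACAN at 4.62, HAPLN1 at 5.70, SOX9 at 6.23 and GDF5 at 5.69. On array 57 (day 10, 36.8 °C) they were COL9A1 at 7.01, HAPLN1 at 7.52, GDF5 at 5.89 and MATN1 at 5.72. HAPLN1 read 7.73 on array 77 (day 13, 36.8 °C), the one high value.

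At day 35, GDF5 read 3.65 on array 3 (38.8 °C on days 7 to 10) and 4.02 on array 31 (38.8 °C on days 10 to 13), and MATN1 read 2.94 on array 60 of the latter group. Arrays 27, 28 and 29 were not flagged, since they are 3 high arrays of 8 and each lies near another. No gene moved one way on every 38.8 °C array and the other way on every 36.8 °C array. At day 13 the COL9A1 arrays at 38.8 °C, from 4.68 up, still did not overlap those at 36.8 °C, which reached 4.61. How many of all probe sets do the same was not computed, so this is not a result about COL9A1.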

How the results depend on the processing

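The number of genes that fell from day 10 to day 13 was 7 in the control and 7 at 36.8 °C under quantile normalization, the listing block, the filter on dim probe sets, the trended robust variance and without any 1 array. At 38.8 °C it was 6 under these settings, 7 without the 5 arrays and 5 to 7 without any 1 array. Every comparison with 0 genes in the report kept 0 under each setting.

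The 2 genes higher at 38.8 °C than at 36.8 °C on day 13 became 0 with the listing block and 0 without the 5 arrays, and 0 to 2 without any 1 array. The count was 0 without array 27, 28, 72 or 79 and 1 without array 29, 73, 75 or 76. Against the control of day 13, COL9A1, HAPLN1 and ACAN turned to -0.13, -0.25 and -0.18 at 38.8 °C without the 5 arrays. Those left out at day 13 were picked for high COL9A1, so lower differences at 38.8 °C were fixed by the choice. The genes with a slope on COL9A1 at day 13 went from 5 to 0 without these arrays, and ran from 1 to 5 without any 1 array. At day 10 they numbered 6, or 5 to 6 without any 1 array.

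The 22 pairs correlated at day 13 became 11 by Spearman's rho, 6 without the 2 farthest arrays, 0 in the second listing block and 0 without the 5 arrays. The 3 pairs at day 35 became 5 without subtraction of group means, 1 and 0 in the listing blocks, 0 by Spearman's rho and 0 without the 2 farthest arrays. The cause was not tested, beyond the arrays that each setting left out.

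The next-highest probe set of a gene could not be tried, because each gene had 1. No paired analysis was possible because the groups compared share no replicate numbers in the labels.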

Other observations

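At day 10 genes outside the 8 also followed COL9A1. Of 10 further cartilage matrix genes 7 had a positive slope past the threshold, where 0.444% of all probe sets did, with COL9A3 at 0.62 ± 0.03 log2 units per log2 unit of COL9A1 and CYTL1 at 0.67 ± 0.04 (limma adjusted p = 7.8e-12 and 3.2e-11). The receptor FGFR3 had a slope of 0.41 ± 0.07, the ligands BMP2 and WNT9A slopes of 0.20 ± 0.04 and 0.19 ± 0.04, and tenomodulin (TNMD) a slope of 0.28 ± 0.05. Of 8 genes of sulfate and glycosaminoglycan synthesis 2 passed, CSGALNACT1 at 0.40 ± 0.07 and PAPSS2 at 0.26 ± 0.06. Of 8 skeletal muscle genes 0 passed, and all 8 slopes were negative, with a median of -0.05. Without arrays 12 and 57, 6 of the 10 further cartilage matrix genes passed, where 0.0821% of all probe sets did, with COL9A3 at 0.70 ± 0.06 and CYTL1 at 0.86 ± 0.06 (limma adjusted p = 4.5e-06 and 1.8e-07), and MATN3 no longer did. None of the genes of the other lists passed then, FGFR3, BMP2, WNT9A, TNMD, CSGALNACT1 and PAPSS2 included, and 7 of the 8 skeletal muscle slopes were positive, with a median of 0.05. Both arrays were picked by COL9A1, so fewer calls without them were in part fixed by the choice.

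At day 13, 5 of the 10 further cartilage matrix genes passed, where 0.116% of all probe sets did, among them EPYC at 0.42 ± 0.05 and MATN3 at 0.50 ± 0.06 (limma adjusted p = 0.000132 for each), and COL12A1 of the tendon and connective tissue list passed at 0.19 ± 0.04. Without arrays 27, 28 and 29, again picked by COL9A1, 0 of the 10 passed and 0% of all probe sets did.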
